A study of Mus musculus with 16 samples.

Results

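The genes described here are 9 members of the complement system, a cascade of proteins that marks and lyses cells and calls in leukocytes: C1ra, C1s1, C2, C4b, C3, Cfb, Serping1, Cd55 and C3ar1. They were taken by gene symbol from a table of 57143 genes, as complement genes listed with expression in heart. RNA was measured in left ventricle (tissue given as myocardium) of male C57BL/6 mice after abdominal surgery under sevoflurane, an inhaled anaesthetic. Groups were 0h, 3h, 24h and 7d after surgery with 4 libraries each, and all 16 libraries, 0h included, carry the label of surgery and of sevoflurane, so no group without surgery is among them. Nothing in the labels ties the libraries of a time to separate animals, so p-values cover the spread between these samples, which may be technical. Levels are in TPM, which is counts scaled by gene length and library total and allows genes to be compared with each other.

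Complement can be started by C1q with its proteases C1r and C1s (the classical arm), by lectins with their proteases, or by spontaneous turnover of C3 with factor B and factor D (the alternative arm). All arms meet at the cleavage of C3, whose fragments tag surfaces and signal through receptors such as the C3a receptor. Most of the circulating proteins come from liver, while local cells, fibroblasts and macrophages among them, also make several of them, and regulators on cells and in plasma hold the cascade in check.

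Of the 9 genes, 7 had a mean of 0.5 TPM or more over the 16 libraries and were tested. C2 and Cfb were below this limit, with 43 and 7 counts summed over all libraries. These counts neither bear out nor refute the listed expression in heart, since an annotated gene overlaps both and makes them uncertain, as described below. Total counts ran from 8.31 M to 12.9 M (M, mega) per library, and the tested genes had between 47 counts (C3ar1) and 2976 counts (C3) in a library. Summed TPM of 8 cardiomyocyte markers was 47555 or more in every library, which fits the labelled tissue.

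In short, Cd55 and C3ar1 fell at 3h, C4b and Serping1 rose at 24h while Cd55 was still low, and no member passed the test at 7d. Differences are log2 fold changes of TMM-scaled counts from edgeR's quasi-likelihood F test, called at a Benjamini-Hochberg adjusted p under 0.05 over 16866 genes. At 3h against 0h, 0 of the 7 tested members were higher and 2 lower, where 1.86% and 3.18% of all genes were called higher and lower. At 24h against 0h, 2 were higher and 1 lower, beside 9.2% and 8.19% of all genes. At 7d against 0h, 0 members were called by edgeR, beside 0.184% of all genes higher and 0.676% lower. There, 5 of the 7 had an unadjusted p under 0.05, all higher at 7d, DESeq2 called 1 and limma on log2(TPM + 1) called 0. The share of all genes with an unadjusted p under 0.05 was not computed, here or for the counts below. Shares of all genes called by DESeq2 and limma are not given, so these counts have no background to be read against. At 24h against 3h, 3 were higher and 0 lower by edgeR, beside 4.03% and 3.56% of all genes. At 7d against 24h, 1 was higher and 0 lower, beside 3.74% and 4.34%. Any change over time was called for 6 of the 7, all but C1ra, beside 20.2% of all genes.

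On the log2 scale the median of the 7 tested members was 0.01 at 3h, 0.32 at 24h and 0.37 at 7d against 0h, where the median of all 16866 genes was 0.00, -0.01 and 0. The comparisons against 0h share their 0h libraries. Ratios of TPM run below these folds at 3h and 24h, since the median of all genes against 0h on log2(TPM + 1) was -0.15 at 3h and -0.19 at 24h. At 7d against 0h, the ratios of mean TPM of the 7 tested members also ran below their edgeR folds.

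**Figure D1:**
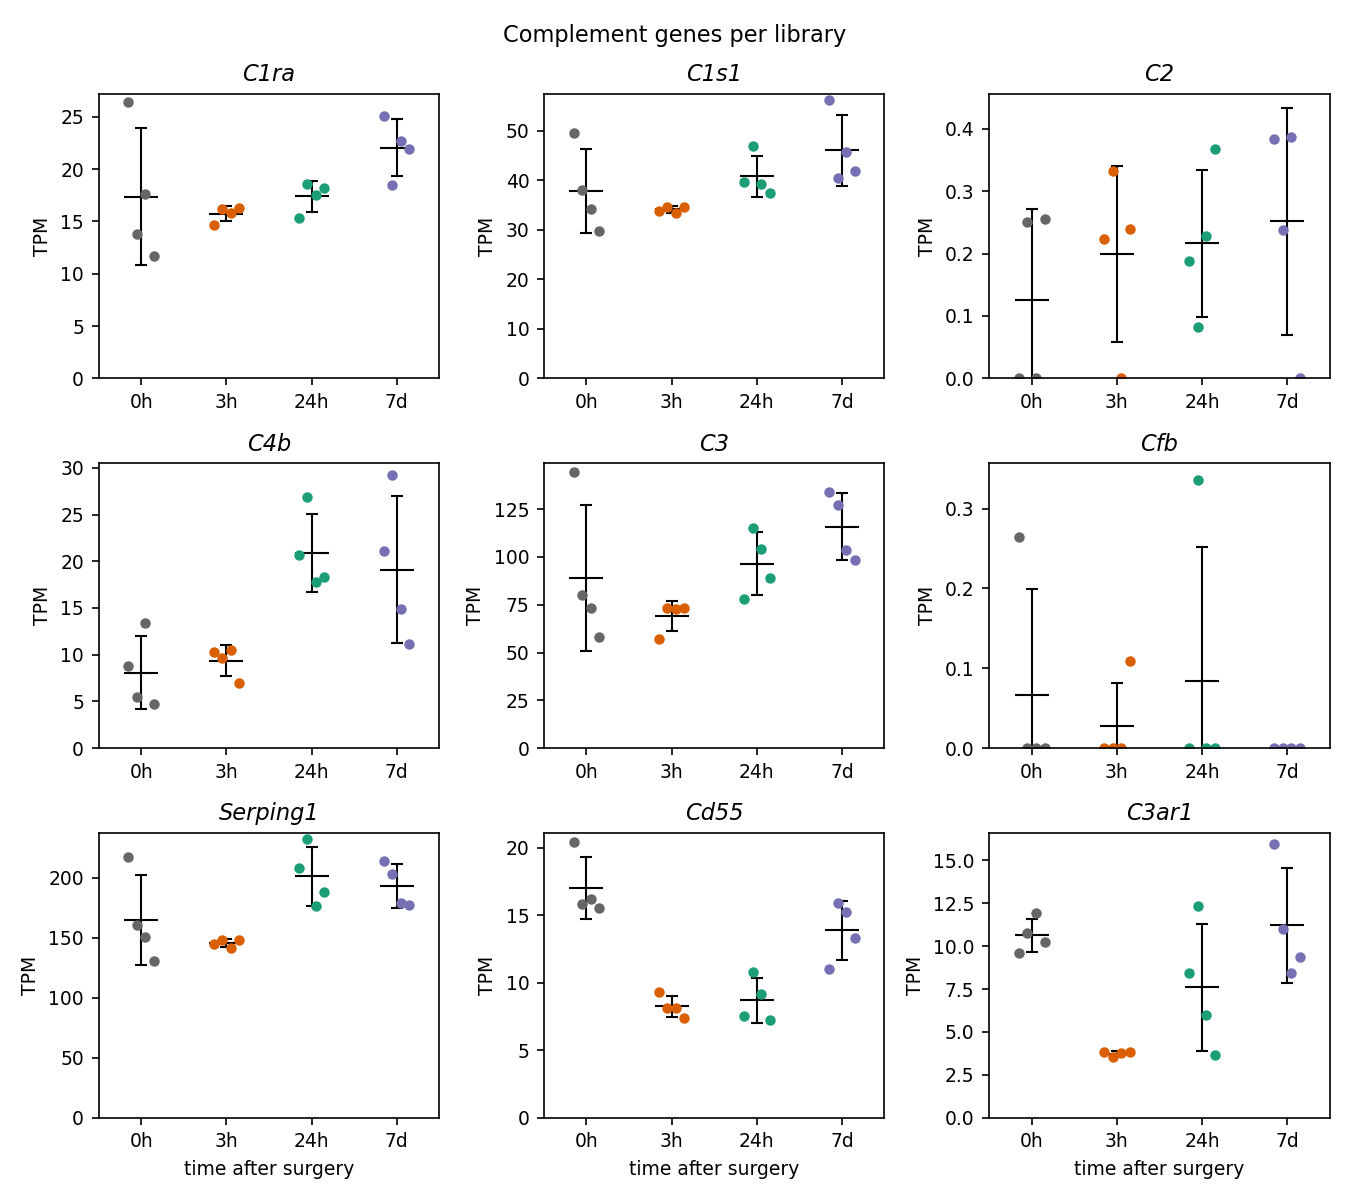
TPM of the 9 complement genes (vertical axis) in the 16 libraries at 0h, 3h, 24h and 7d (horizontal axis). Points are libraries and bars the mean ± SD (n = 4); Cd55 and C3ar1 lie lower at 3h than in any 0h library, C4b lies higher at 24h than in any 0h library, and C2 and Cfb stay near 0.

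The levels of the 7 tested genes spanned a wide range. Serping1 was the most abundant at every time, with a mean of 164.8 ± 37.2 TPM at 0h, 145.5 ± 3.23 at 3h, 201.2 ± 24.5 at 24h and 193.3 ± 18.1 at 7d (SD, n = 4). C3 came next with 89.0 ± 38.1, 69.1 ± 8.05, 96.5 ± 16.4 and 115.9 ± 17.5 TPM at the same times, then C1s1 with 37.9 ± 8.47, 34.1 ± 0.628, 40.8 ± 4.16 and 46.0 ± 7.12 TPM. C1ra, C4b, Cd55 and C3ar1 followed at 26.4 TPM or less in every library except the highest C4b values at 24h and 7d. Serping1 was above C3, and C3 above C1s1, in each of the 16 libraries, so this order held within libraries although the ranges of Serping1 and C3 overlapped at 0h. At 0h, C1ra was above Cd55 in 2 of 4 libraries and C4b above C3ar1 in 1 of 4, and the ranges of each pair overlapped.

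In the library 0h replicate 1, 5 of the 7 tested genes had the highest TPM of the 0h group (C1ra, C1s1, C3, Serping1 and Cd55). This library also had the highest summed TPM at 0h of 10 fibroblast markers (3434, against 2043 to 2558 in the other 0h libraries) and of 8 adipocyte markers (46.6, against 2.28 to 7.26). Its deviation from the mean of the 0h group on log2 CPM was 0.71 for C3, 0.60 for C1ra, 0.35 for Serping1 and 0.34 for C1s1. In 0h replicate 4, 6 of the 7 genes had the lowest TPM of the 0h group. At 24h, replicate 2 had the highest TPM of all 7 genes. The part of these cell markers in the results was not tested, and results that change without 0h replicate 1 are given below without it.

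**Figure D2:**
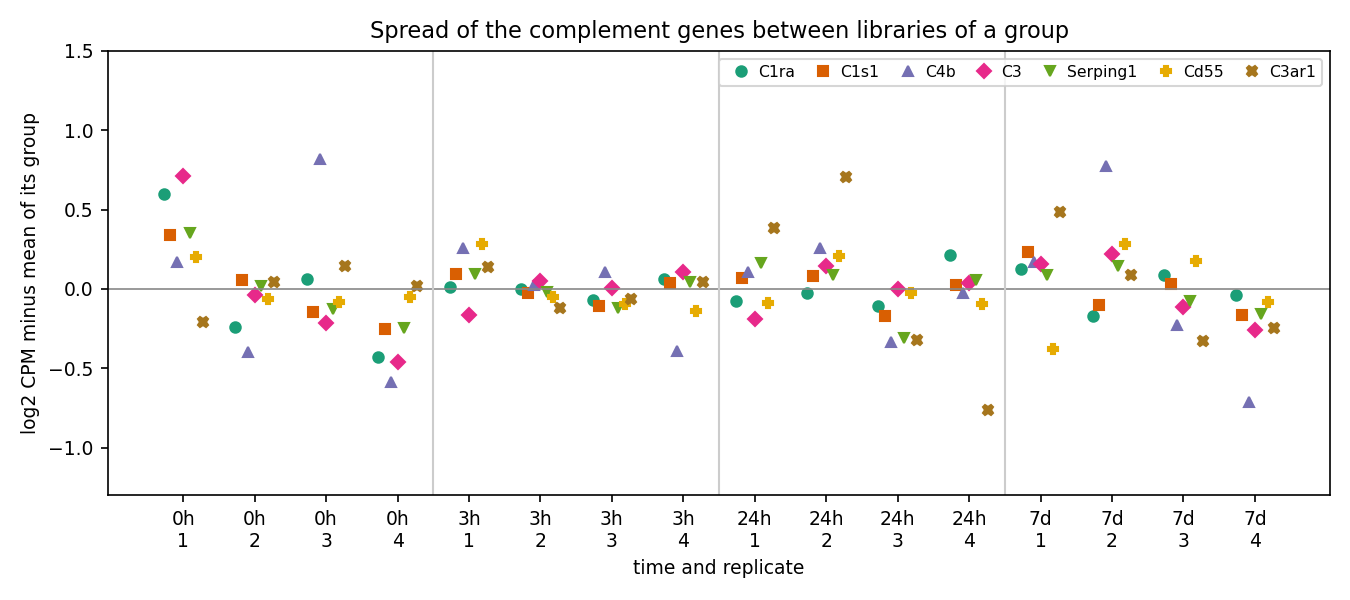
Deviation of each tested complement gene from the mean of its group (vertical axis, log2 CPM) in each of the 16 libraries (horizontal axis). The 3h libraries lie close together for most genes, while 0h replicate 1 stands 0.71 above its group for C3 and 0.60 for C1ra.

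C1ra and C1s1 encode the proteases C1r and C1s, which sit with C1q in the C1 complex and cleave C4 and C2. C1ra (ENSMUSG00000055172, chr6:124512405-124523443, plus strand, GRCm38) had 26.4, 13.8, 17.6 and 11.7 TPM at 0h, 14.7, 16.2, 15.8 and 16.3 at 3h, 15.3, 18.6, 17.5 and 18.2 at 24h, and 25.1, 18.5, 22.7 and 21.9 at 7d. Its 7d libraries were high and its 0h libraries the most spread, and the groups at 7d and 0h overlapped. The log2 fold change was 0.04 ± 0.16 (SE) at 3h, 0.22 ± 0.16 at 24h and 0.44 ± 0.16 at 7d against 0h, with edgeR adjusted p = 0.906, 0.370 and 0.192. Without 0h replicate 1, C1ra passed the test at 24h (0.48, edgeR adjusted p = 0.0351) and at 7d (0.69, edgeR adjusted p = 0.0367).

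C1s1 (ENSMUSG00000038521, chr6:124530345-124542359, minus strand) had 49.6, 38.0, 34.2 and 29.8 TPM at 0h, 33.7, 34.6, 33.4 and 34.7 at 3h, 39.7, 46.9, 39.3 and 37.4 at 24h, and 56.2, 40.5, 45.6 and 41.8 at 7d. All 24h libraries lay above all 3h libraries, and the groups at 24h and 0h overlapped. The log2 fold change was 0.32 ± 0.12 at 24h against 0h (edgeR adjusted p = 0.0649) and 0.37 ± 0.12 at 7d against 0h (edgeR adjusted p = 0.140). The test of any change over time gave an edgeR adjusted p of 0.0412, which 12 of the 16 leave-one-out fits did not keep, with a highest p of 0.0919 without 0h replicate 3. At 24h against 0h, C1s1 passed without 0h replicate 1 (edgeR adjusted p = 0.0185), without 24h replicate 3 (edgeR adjusted p = 0.0295) and in DESeq2 (adjusted p = 0.0457).

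Near-identical copies limit both proteases. Of the 50-base words in transcripts of C1ra, 48.0% also occur in transcripts of C1rb, and 21.8% of those of C1s1 occur in C1s2. C1rb and C1s2 had 1 and 6 counts over all libraries. How the authors' counting handled reads that fit 2 genes is not given in the sources used here.

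C4b and C2 encode the next components, C4 and C2, whose fragments form the C3 convertase of the classical and lectin arms. C4b (ENSMUSG00000073418, chr17:34728380-34743882, minus strand) had 8.76, 5.51, 13.4 and 4.67 TPM at 0h, 10.3, 9.67, 10.5 and 6.95 at 3h, 20.7, 26.9, 17.8 and 18.3 at 24h, and 21.1, 29.2, 14.9 and 11.2 at 7d. All 24h libraries lay above all 0h and all 3h libraries, while the 7d libraries were the most spread and overlapped those at 0h. The change of C4b was 1.60 ± 0.33 on the log2 scale at 24h against 0h, the widest of the 7 members at that time (edgeR adjusted p = 0.00603), and it was 0.41 ± 0.34 at 3h against 0h (edgeR adjusted p = 0.510). In leave-one-out fits the call at 24h against 0h held, with a highest edgeR adjusted p of 0.0218. Since this is bulk tissue, fewer or more cells of a type and less or more RNA per cell cannot be told apart here or in the results below.

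Against 3h, C4b was 1.19 ± 0.33 higher at 24h (edgeR adjusted p = 0.0426). This call was lost without any of 9 libraries (0h replicate 1, each 3h replicate, 24h replicates 1, 2 and 4, and 7d replicate 1), with edgeR adjusted p of 0.0557 to 0.110. At 7d against 0h, C4b was at 1.36 ± 0.33 (edgeR adjusted p = 0.0718), and it passed in DESeq2 (adjusted p = 0.00866), without 0h replicate 3 (edgeR adjusted p = 0.0497) and without 7d replicate 4 (edgeR adjusted p = 0.0232). Of its 50-base words, 34.6% occur in transcripts of C4a, which had 53 counts over all libraries against 4692 for C4b. Reads of these 2 genes may therefore have been shared.

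C2 (ENSMUSG00000024371, chr17:34862604-34898265, minus strand) had 0, 3, 0 and 3 counts at 0h, 3, 4, 0 and 3 at 3h, 3, 1, 3 and 5 at 24h, and 5, 4, 6 and 0 at 7d. Its counts summed to 6 at 0h, 10 at 3h, 12 at 24h and 15 at 7d, and the main fit did not test it. Cfb, which encodes factor B, the protease precursor of the alternative arm's C3 convertase, had 3 counts in 0h replicate 1, 1 in 3h replicate 4, 3 in 24h replicate 2 and 0 in each of the others. Cfb (ENSMUSG00000090231, chr17:34856374-34862518, minus strand) and C2 lie side by side, and an annotated gene on the same strand, Gm20547, spans both. It shares 79.5% of the exonic bases of Cfb and 42.8% of those of C2, and it had 0 counts in all libraries. Levels of C2 and Cfb are uncertain for that reason, since reads that fall in 2 genes may or may not have been counted; the part of this overlap in the low counts was not tested.

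**Figure D3:**
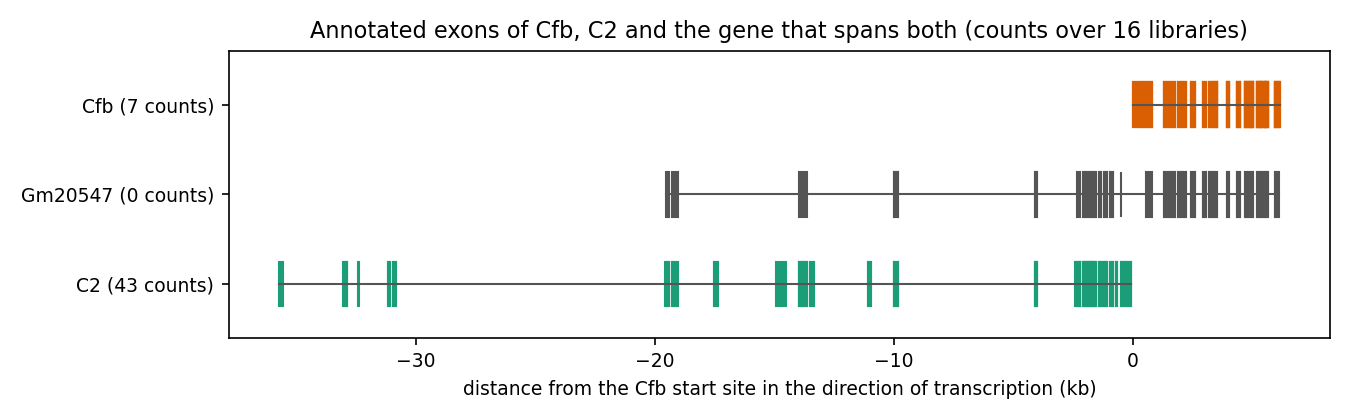
Annotated exons (boxes) of Cfb, Gm20547 and C2, placed by distance in kilobases from the Cfb start site in the direction of transcription (horizontal axis), with counts over the 16 libraries beside each name. Exons of Gm20547 cover exons of both genes, and the counts are 7 for Cfb, 0 for Gm20547 and 43 for C2.

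C3 encodes the component that all arms cleave. C3 (ENSMUSG00000024164, chr17:57203970-57228136, minus strand) had 144, 80.3, 73.2 and 58.1 TPM at 0h, 57.1, 73.4, 73.0 and 73.2 at 3h, 78.0, 115, 104 and 88.9 at 24h, and 134, 127, 104 and 98.5 at 7d. All 24h libraries lay above all 3h libraries, and 0h replicate 1 was above every other library. The log2 fold change was -0.17 ± 0.18 at 3h, 0.33 ± 0.18 at 24h and 0.49 ± 0.18 at 7d against 0h, with edgeR adjusted p = 0.619, 0.218 and 0.207. Without 0h replicate 1, C3 was 0.64 higher at 24h (edgeR adjusted p = 0.00496) and 0.79 higher at 7d (edgeR adjusted p = 0.0130) than at 0h. The test of any change over time gave an edgeR adjusted p of 0.0403, which 12 of the 16 leave-one-out fits did not keep, with a highest p of 0.0900 without 3h replicate 1.

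The promoter of C3, from the RefSeq table (GRCm38.p6), is shown because C3 is the component on which the arms meet. Its 250 bases before the start site (chr17:57228137-57228386, minus strand), with a match to the C/EBP motif in capitals, read as follows.
C3: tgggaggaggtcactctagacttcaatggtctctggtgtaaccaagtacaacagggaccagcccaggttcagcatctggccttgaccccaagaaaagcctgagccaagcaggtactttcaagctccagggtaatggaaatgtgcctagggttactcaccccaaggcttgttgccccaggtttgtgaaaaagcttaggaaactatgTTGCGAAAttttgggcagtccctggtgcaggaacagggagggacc
C/EBP proteins are transcription factors active in acute-phase genes of liver. The motif TTGCNNAA was searched on both strands in windows of 300 bases (250 before and 50 after each start site), and 10.8% of 32851 promoters hold it. The match in C3 begins at position -45 from the start site. Of the 5 members with a promoter in the table, C1ra and C1s1 also had a C/EBP match, and C1ra had a match to the STAT motif TTCNNNGAA, found in 8.30% of promoters. These matches are descriptions of letters, not sites shown to be bound.

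Serping1 encodes the C1 inhibitor, which blocks C1r, C1s and the lectin arm's proteases. Serping1 (ENSMUSG00000023224, chr2:84765387-84775444, minus strand) had 217, 161, 151 and 130.3 TPM at 0h, 144, 148, 141 and 148 at 3h, 208, 232, 176 and 188 at 24h, and 214, 203, 178 and 178 at 7d. The 24h libraries were all above the 3h libraries, and the groups at 24h and 0h overlapped through 0h replicate 1. Serping1 rose by 0.51 ± 0.12 on the log2 scale at 24h against 0h (edgeR adjusted p = 0.00679) and by 0.50 ± 0.12 against 3h (edgeR adjusted p = 0.0143). The first of these calls held in every leave-one-out fit, with a highest edgeR adjusted p of 0.0314, but not with limma on log2(TPM + 1), where the fold was 0.30 (adjusted p = 0.0979). The call against 3h was lost without 3h replicate 3 (edgeR adjusted p = 0.0547) and without 24h replicate 1 (edgeR adjusted p = 0.0505).

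A fibroblast marker moved with Serping1. Dcn, which encodes decorin, a proteoglycan made by fibroblasts, had 564, 525, 395 and 497 TPM at 24h, against 476, 422, 367 and 342 TPM at 0h, and rose by 0.53 ± 0.14 on the log2 scale (edgeR adjusted p = 0.00949). The summed TPM of the 10 fibroblast markers was 2169 to 2410 at 24h, against 2043 to 3434 at 0h, and 1 marker was called higher and 4 lower. With log2 CPM of Dcn as a covariate, chosen after the data were seen, the Serping1 difference at 24h against 0h was 0.10 (edgeR adjusted p = 0.831). That of C4b was 1.20 (edgeR adjusted p = 0.353), and that of Cd55 was -0.83 (edgeR adjusted p = 0.0511). Dcn was the closest to Serping1 of the genes listed by profile below, over these same libraries. The fit with Dcn was therefore bound to shrink the Serping1 difference, and it does not test the part of fibroblasts. Myl7, an atrial marker, was at 63.8, 126, 6.97 and 159 TPM at 24h, against 0, 1.096, 9.59 and 0 TPM at 0h. With log2 CPM of Myl7 as a covariate no member was called at 24h against 0h by edgeR, at folds of 1.19 for C4b (adjusted p = 0.292), 0.57 for Serping1 (adjusted p = 0.205) and -0.60 for Cd55 (adjusted p = 0.225). Over all genes, 64 were called in this fit, against 2933 without the covariate, so the loss of calls was not particular to the members. The parts of fibroblasts and of atrial tissue in these results were not tested.

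**Figure D4:**
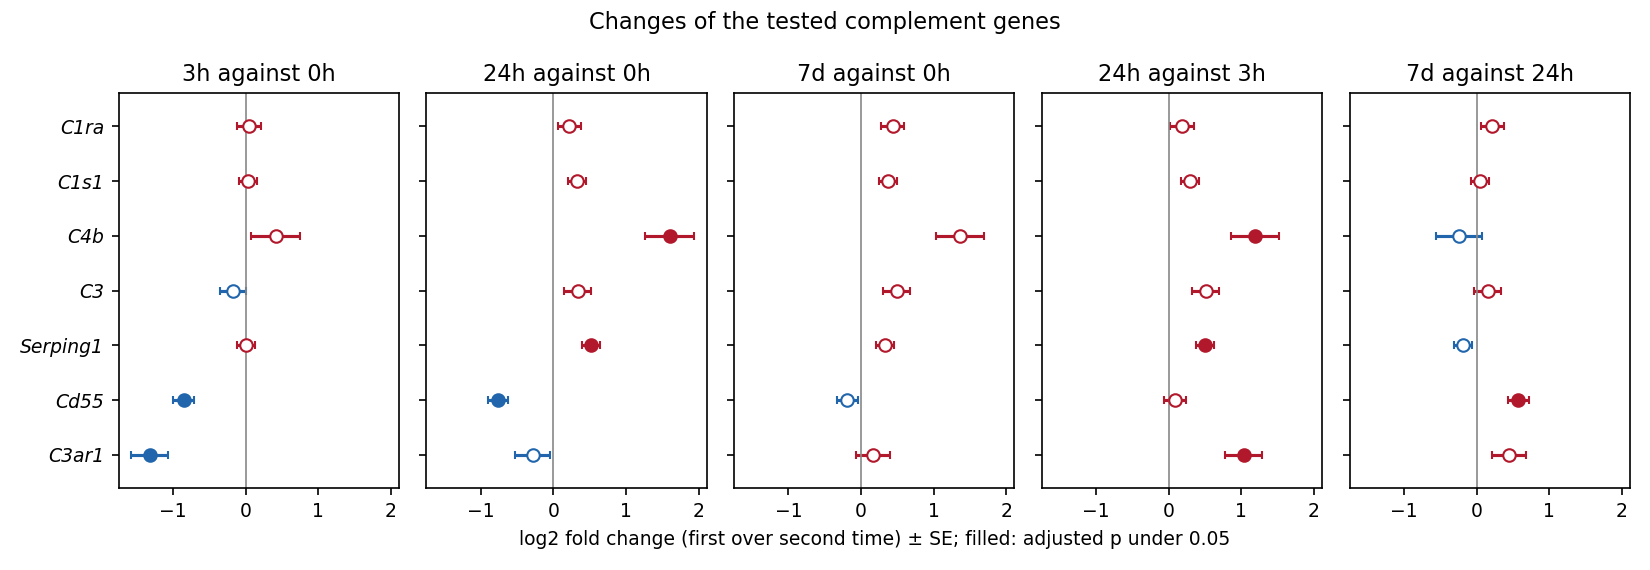
Log2 fold change ± SE (horizontal axis) of the 7 tested complement genes (vertical axis) in 5 comparisons of times, first over second time. Filled points passed an edgeR adjusted p under 0.05; Cd55 and C3ar1 lie left of 0 at 3h, and C4b lies at 1.60 at 24h against 0h.

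Cd55 encodes decay-accelerating factor, a protein anchored on the cell surface that takes C3 convertases apart. Cd55 (ENSMUSG00000026399, chr1:130439027-130462744, minus strand) had 20.4, 15.9, 16.2 and 15.5 TPM at 0h, 9.33, 8.16, 8.13 and 7.39 at 3h, 7.51, 10.8, 9.19 and 7.27 at 24h, and 11.03, 15.9, 15.2 and 13.3 at 7d. Every 3h and every 24h library was below every 0h library and below every 7d library. Cd55 fell by 0.85 on the log2 scale at 3h against 0h (SE 0.14, edgeR adjusted p = 0.00224) and by 0.76 at 24h against 0h (SE 0.14, edgeR adjusted p = 0.00118). It was 0.57 ± 0.14 higher at 7d than at 24h (edgeR adjusted p = 0.0137), and its difference at 7d against 0h was -0.19 ± 0.14 (edgeR adjusted p = 0.548). All 3 calls held in every leave-one-out fit, with highest edgeR adjusted p of 0.0148, 0.00786 and 0.0491. With only the 2 groups in the fit, the difference at 7d against 24h did not pass (edgeR adjusted p = 0.0798).

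Markers of endothelium and mesothelium were measured beside Cd55. Kdr, which encodes a VEGF receptor of endothelial cells, had 18.4, 32.2, 29.7 and 29.5 TPM at 3h and 38.2, 40.4, 39.6 and 16.4 at 24h, against 90.7, 66.8, 72.5 and 65.4 at 0h. It fell by 1.25 on the log2 scale at 3h (edgeR adjusted p = 0.0146) and by 0.93 at 24h (edgeR adjusted p = 0.0239), and its difference at 7d against 0h was -0.12 (edgeR adjusted p = 0.872). Of the 8 endothelial markers, 0 were called higher and 1, Kdr, lower at 3h (5 had an unadjusted p under 0.05, all lower). At 24h against 0h, 1 was called higher and 1 lower, and the 8 markers centred on 0.05 (median, log2 scale). Kdr was the lower one, and Fabp4 was the higher one, at 0.57 (edgeR adjusted p = 0.0382). Summed TPM of the 8 markers was 1008 to 1137 at 3h and 1039 to 1753 at 24h, against 1087 to 1470 at 0h. Summed TPM of 8 mesothelial markers was 1.52 to 5.21 at 3h, 1.63 to 4.17 at 24h and 2.61 to 4.56 at 7d, against 5.76 to 12.2 at 0h. Of the 3 tested mesothelial markers, edgeR called 0 at 3h (2 had an unadjusted p under 0.05, both lower), and 2, Msln and Upk3b, were lower at 24h. Msln had 0, 0, 1 and 0 counts at 24h, against 6, 13, 17 and 29 at 0h. The part of endothelial and mesothelial cells in the Cd55 result was not tested.

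Cd59a, which encodes another anchored regulator, one that blocks the membrane attack complex, was used to set Cd55 against a gene of the same library. This ratio and the others of its kind were chosen after the values were seen. The ratio of Cd55 to Cd59a TPM averaged 0.0394 at 3h and 0.0419 at 24h, against 0.0852 at 0h (geometric means, n = 4 each). In both comparisons the groups did not overlap, and a 2-sided exact permutation test gave p = 0.0286, the smallest that 70 orderings allow, with 0.0514 after adjustment over 9 such tests. Cd55 alone did not overlap in these comparisons either, so these p-values are not separate support for its calls. At 7d the ratio was 0.0795, against 0.0852 at 0h (exact permutation p = 0.629). The promoter of Cd55 is shown since Cd55 and C3ar1 were both lower at 3h.
Cd55: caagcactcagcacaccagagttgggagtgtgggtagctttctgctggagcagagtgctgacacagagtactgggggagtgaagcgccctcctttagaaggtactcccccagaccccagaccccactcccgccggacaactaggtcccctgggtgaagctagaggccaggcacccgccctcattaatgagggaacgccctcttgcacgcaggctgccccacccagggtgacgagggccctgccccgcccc
These are the 250 bases before its start site (RefSeq, GRCm38.p6, chr1:130462745-130462994, minus strand), of which 64.0% are G or C. In the 300-base window none of 5 motifs was found, among them STAT, C/EBP and NF-kappa-B and that of the glucocorticoid receptor, which 0.475% of promoters hold. The fifth was the IRF motif, found in 3.44% of promoters, and the NF-kappa-B consensus was in 8.46%.

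C3ar1 encodes the receptor for C3a, a G protein-coupled receptor found on macrophages and other leukocytes. C3ar1 (ENSMUSG00000040552, chr6:122847138-122856161, minus strand) had 9.62, 10.7, 11.9 and 10.2 TPM at 0h, 3.82, 3.51, 3.76 and 3.81 at 3h, 8.41, 12.3, 6.00 and 3.63 at 24h, and 15.96, 11.004, 8.45 and 9.38 at 7d. The 3h libraries were close together and all below the 0h and 7d libraries, whereas the 24h libraries ran from the 3h level to above the 0h level. C3ar1 fell by 1.32 on the log2 scale at 3h against 0h (SE 0.25, edgeR adjusted p = 0.00589), a call that held in every leave-one-out fit with a highest edgeR adjusted p of 0.0215. The log2 fold change was -0.29 ± 0.24 at 24h (edgeR adjusted p = 0.428) and 0.16 ± 0.23 at 7d (edgeR adjusted p = 0.786) against 0h. It was 1.04 ± 0.25 higher at 24h than at 3h (edgeR adjusted p = 0.0156), a call lost without 3h replicate 2, 24h replicate 1 or 24h replicate 2 (edgeR adjusted p = 0.0520, 0.0582 and 0.0540).

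The promoter of C3ar1 (RefSeq, GRCm38.p6, chr6:122856158-122856407, minus strand, 250 bases before its start site) is set beside that of Cd55 and has 45.6% G or C.
C3ar1: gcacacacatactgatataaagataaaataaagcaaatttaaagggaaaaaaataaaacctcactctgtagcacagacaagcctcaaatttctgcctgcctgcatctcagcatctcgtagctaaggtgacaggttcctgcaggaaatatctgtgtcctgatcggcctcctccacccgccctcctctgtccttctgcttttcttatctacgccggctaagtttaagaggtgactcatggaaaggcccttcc
None of the 5 motifs was found in its 300-base window either.

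Markers of macrophages were measured beside C3ar1. Of 14 tested macrophage markers, 3 were called higher at 3h than at 0h (Cd14, C1qa and C1qb) and 1 lower (Cx3cr1), and the median of the 14 was 0.14 on the log2 scale. Summed TPM of all 15 macrophage markers was 921 to 1174 at 3h, against 798 to 991 at 0h. Most of this sum came from C1qa, C1qb and C1qc, which are complement genes themselves. They had 398, 342 and 140 TPM of the 1174 in 3h replicate 1, and 302, 243 and 142 of the 991 in 0h replicate 1. The sum therefore does not show a rise of macrophage markers in general. Cx3cr1, which encodes the fractalkine receptor of resident macrophages and monocytes, had 1.03, 1.65, 1.84 and 0.96 TPM at 3h, against 7.44, 5.32, 6.13 and 7.02 at 0h, and fell by 2.07 on the log2 scale (SE 0.51, edgeR adjusted p = 0.0332). For Csf1r, Adgre1 and Cd68 the log2 fold changes at 3h were -0.11, -0.06 and -0.06, with edgeR adjusted p = 0.593, 0.856 and 0.892. Summed TPM of 12 neutrophil markers was 151 to 576 at 3h, against 11.1 to 13.2 at 0h, and 7 of the 8 tested were called higher. The part of any change in cell numbers in the C3ar1 result was not tested.

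Within libraries, the ratio of C3ar1 to C1qa TPM averaged 0.0111 at 3h, against 0.0391 at 0h, and its groups did not overlap. The ratio to C5ar1, which encodes the receptor for C5a, averaged 0.305 at 3h and 0.575 at 24h, against 1.28 at 0h. Mean TPM of C5ar1 itself was 1.42 times its 0h mean at 3h and 1.46 times at 24h, where C3ar1 was at 0.715 times and was not called. The ratio at 24h therefore also holds the higher C5ar1. The exact test of the ratios to C1qa and C5ar1 follows. In these comparisons the 2-sided exact permutation p was 0.0286 (70 orderings, the smallest possible) and 0.0514 after adjustment over 9 tests. At 3h every C3ar1 value was below and every C1qa value above all 0h values. The p of their ratio was thus fixed in advance and adds no support to the C3ar1 call. At 7d the ratio to C5ar1 was 1.08, against 1.28 at 0h (exact permutation p = 0.457). The C3ar1 to C1qa ratio at 24h was 0.0252, against 0.0391 at 0h (exact permutation p = 0.0857), and 24h replicate 4 alone was at the 3h level, with 0.0120.

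Hepatocyte markers also stood apart at 3h. Alb, which encodes albumin, had 0, 35.6, 28.5 and 5.42 TPM at 3h, against 0, 0, 0 and 0.28 TPM at 0h, and 4 of 10 tested hepatocyte markers were called higher. With log2 CPM of Alb as a covariate, Cd55 was at -0.73 (edgeR adjusted p = 0.125) and C3ar1 at -1.46 (edgeR adjusted p = 0.0921) at 3h against 0h, so neither was called. Over all genes, 44 were called in this fit, against 850 without the covariate, so the loss of calls was not particular to these 2 genes. For C3ar1 and Cd55, all 3h libraries were below every 0h library. Among them was 3h replicate 1, where Alb was at 0, C3ar1 at 3.82 TPM and Cd55 at 9.33 TPM. The part of hepatocyte RNA in the results for these 2 genes was not tested.

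The other genes of the cascade were a list of 51, of which 27 were tested and 24 had 0 to 69 counts over all libraries. At 3h against 0h, 2 of the 27 were higher and 1 lower, beside 1.86% and 3.18% of all genes, and the median of the 27 was 0.18 on the log2 scale. At 24h against 0h, 5 were higher and 2 lower, beside 9.2% and 8.19%, at a median of 0.25, and at 24h against 3h, 3 were higher and 0 lower, beside 4.03% and 3.56%. At 7d against 0h, 0 of the 27 were called by edgeR, beside 0.184% of all genes higher and 0.676% lower. There, 4 had an unadjusted p under 0.05, DESeq2 called 2 and limma 0, counts that have no share of all genes beside them. At 7d against 24h, 1 was lower and 0 higher, beside 4.34% and 3.74%, and 9 of the 27 changed over time, beside 20.2%.

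Genes of the initiating arms moved as follows. C1qa and C1qb, which encode chains of C1q, averaged 337.4 ± 42.9 and 287.1 ± 42.3 TPM at 3h, against 271.5 ± 23.2 and 220.7 ± 17.5 TPM at 0h (SD, n = 4). C1qa rose by 0.51 on the log2 scale (edgeR adjusted p = 0.0298) and C1qb by 0.57 (edgeR adjusted p = 0.0367) at 3h against 0h. The C1qa call was lost without 3h replicate 1 or 4 or any 0h library (edgeR adjusted p up to 0.154), and the C1qb call without 3h replicate 1, 2 or 3 or any 0h library (edgeR adjusted p up to 0.153). Masp1, which encodes a protease of the lectin arm, averaged 5.75 ± 2.37 TPM at 24h, against 3.96 ± 0.724 at 0h, and rose by 0.74 on the log2 scale (edgeR adjusted p = 0.0192). That call was lost without 0h replicate 1 (edgeR adjusted p = 0.0754) and without 24h replicate 2 (edgeR adjusted p = 0.0813), while the rise of Masp1 by 0.94 at 24h against 3h (edgeR adjusted p = 0.00876) held in every leave-one-out fit.

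Among regulators, Clu, which encodes clusterin, an inhibitor of the terminal complex, averaged 623.9 ± 59.2 TPM at 24h, against 442.8 ± 36.1 at 0h, and rose by 0.71 on the log2 scale (SE 0.16, edgeR adjusted p = 0.00418). The call held in every leave-one-out fit but not with Dcn (edgeR adjusted p = 0.261) or Myl7 (edgeR adjusted p = 0.230) as a covariate. Cd59a averaged 172.9 ± 7.9 TPM at 7d, against 205 ± 12.6 at 24h, and its log2 fold change was -0.38 (edgeR adjusted p = 0.0476), a call lost without any of 11 libraries (edgeR adjusted p up to 0.197).

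Further calls concerned single genes. Collectin genes, which encode soluble or membrane lectins, differed in direction: Colec12 was at -0.52 at 24h against 0h (edgeR adjusted p = 0.0208) and Colec11 at 0.42 at 24h against 3h (edgeR adjusted p = 0.0214). C8g, a chain of C8, was at 0.77 (edgeR adjusted p = 0.0485) and C5ar1 at 0.75 (edgeR adjusted p = 0.0339) at 24h against 0h. Cd93, a surface protein of endothelial and myeloid cells once held to be a C1q receptor, averaged 29.6 ± 3.38 TPM at 3h, against 59.3 ± 9.67 at 0h, and fell by 0.81 (edgeR adjusted p = 0.0182). At 24h against 0h, Cd93 was at -0.55 (edgeR adjusted p = 0.0484). Vsig4, a macrophage receptor for C3 fragments, averaged 7.51 ± 3.38 TPM at 7d, against 2.79 ± 1.48 at 0h, and passed the test of any change (edgeR adjusted p = 0.0216) but not that at 7d (edgeR adjusted p = 0.0578).

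Each of those calls was lost without some single library. That of Colec12 was lost without 0h replicate 1 or 24h replicate 1 (edgeR adjusted p up to 0.0876), and that of Colec11 without 3h replicate 1, 2 or 3 or 24h replicate 2 (up to 0.0697). That of C8g was lost without any of 13 libraries (up to 0.162), and that of C5ar1 without any of 5 (0h replicates 1, 3 and 4 and 24h replicates 1 and 2, up to 0.133). That of Cd93 at 3h was lost without 0h replicate 1 or 3h replicate 1 or 2 (up to 0.0700), and at 24h without any of 12 libraries (up to 0.136). That of Vsig4 for any change was lost without 0h replicate 1 (0.0502) or 7d replicate 2 (0.122).

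**Figure D5:**
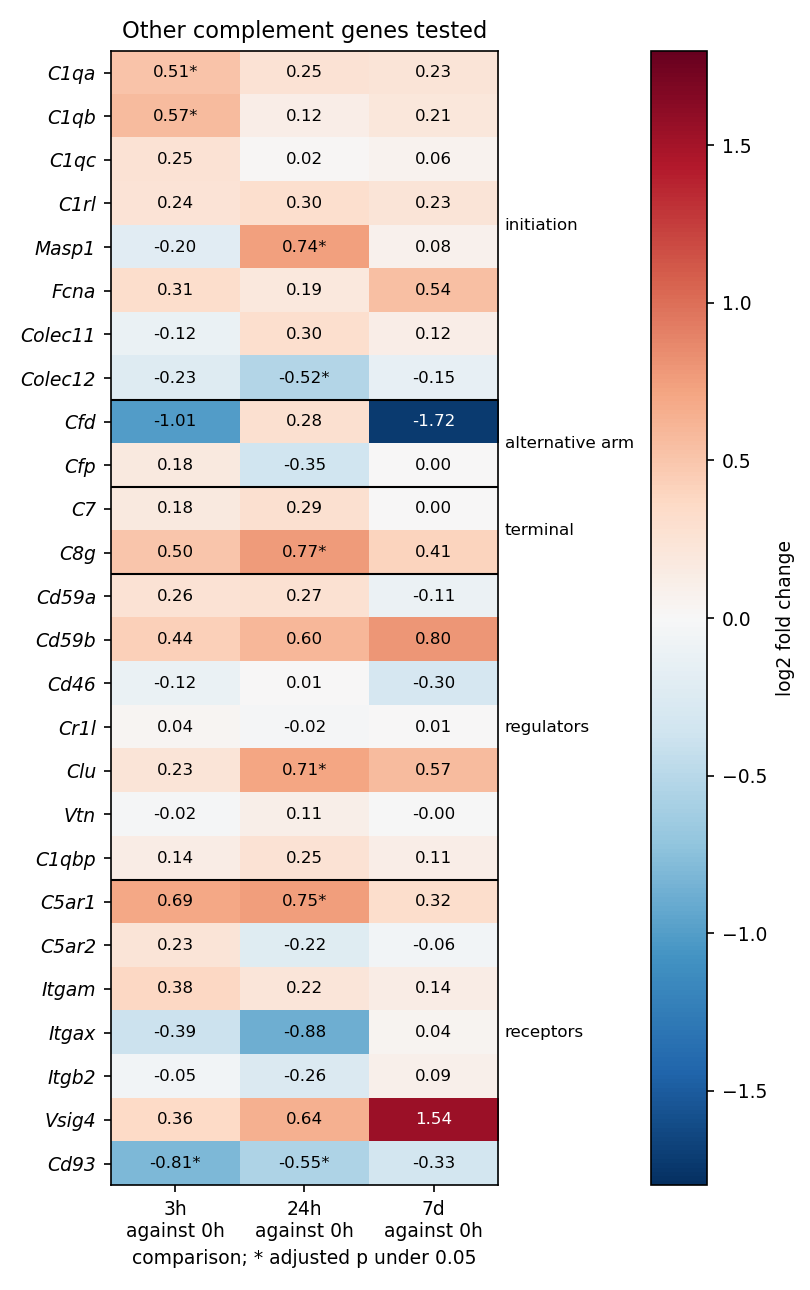
Log2 fold change (colour and printed value) of other tested complement genes (vertical axis, grouped by role) at 3h, 24h and 7d against 0h (horizontal axis). Stars mark an edgeR adjusted p under 0.05; Masp1, Clu, C8g and C5ar1 carry one above 0 at 24h, and none is at 7d.

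For each member that changed over time, the 3 tested genes closest in log2 CPM over the 16 libraries, each centred on its mean, were listed by root mean square difference, as a description. For Serping1 they were Dcn (0.12), C1s1 (0.13) and Os9 (0.14), beside a standard deviation of its own values of 0.27. C1s1 was closest to Prpsap1 (0.11), Serping1 (0.13) and Dusp12 (0.13), with 0.23 of its own. C3 was closest to Thap11 (0.20), Anpep (0.21) and C1s1 (0.21), with 0.37 of its own. Serping1 and C1s1 were thus each among the 3 closest to the other.

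Cd55 was closest to Fstl1 (0.16), Antxr1 (0.21) and Rftn1 (0.22), with 0.40 of its own. C3ar1 was closest to Zfp462 (0.31), Gipc2 (0.31) and Clmp (0.34), with 0.65 of its own, and C4b, among its 3 closest, to Gpnmb (0.47) and Tox3 (0.48), with 0.79 of its own.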

How the data were processed

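RNA of left ventricle was profiled at 4 times with 4 libraries each. The authors deposited 1 table of raw counts, TPM and FPKM per gene and library. Raw counts are whole numbers per gene with no normalization, per the deposited column names. TPM deposited by the authors were recovered from counts and gene lengths to a relative 5.2e-15, and FPKM were deposited by the authors but not used here. Libraries were made from polyA RNA with a directional NEBNext kit, per the labels' protocols. Cutadapt, STAR and the mouse build mm10 are named in the submitters' processing notes. Versions, counter, strand setting and annotation release are not given in those sources, so overlapping, antisense and near-identical genes are uncertain. Columns were matched to samples by time and number, since their prefix differs from that of the titles, and 0 columns were left unmatched.

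Genes with a mean of 0.5 TPM or more were tested (16866, with 99.8% to 99.9% of all counts in a library). The test was edgeR's quasi-likelihood F test (version 4.0.16, R 4.3.3) on TMM-scaled counts, with robust glmQLFit over all 16 libraries, no block, Benjamini-Hochberg adjustment in each comparison and a threshold of 0.05. SE is the log2 fold change divided by the square root of F. Ratios of TPM were compared with an exact permutation test. Alternatives used DESeq2 1.42.0, limma 3.58.1 (pseudocounts 1 and 0.1), other filters and scalings, a replicate block, marker covariates and leaving out each library. The tests were checked on simulated counts. Coordinates and overlaps come from GENCODE M21 (GRCm38), which holds 90.8% of the table's gene IDs; gene lengths in the table equalled its exonic lengths for the 9 members. Members and gene lists were chosen with earlier results of these data known. Named genes were the 9 members, other complement genes past the threshold in any test, and the 3 nearest profiles of each member that changed over time; the overlap of Cfb and C2, the TPM ratios, single marker genes and the covariates Dcn, Cfd and Adgre1 were added after values were seen. Some genes that meet this rule are not reported here, although counts over a list include them. Same-numbered samples did not deviate together (r from -0.12 to 0.055, 0 of 24 pairs over 0.1). This cannot exclude a pairing, but the labels do not state that the numbers pair the samples.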

Additional observations from a re-analysis of the deposited data

Results flagged for a closer look

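Within groups of 4 libraries, the gap of the highest or lowest value to its nearest neighbour was set against the range of the group for 28 groups of member TPM, where chance marks about 1 in 20 groups, and 2 were marked. C3 in 3h replicate 1 was low at 57.1 TPM, against 73.0 to 73.4 TPM in the other 3h libraries. Cd55 in 0h replicate 1 was high at 20.4 TPM, against 15.5 to 16.2 TPM in the other 0h libraries. Without 0h replicate 1 the fall of Cd55 at 3h and at 24h was still called.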

How the results depend on the processing

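There were 30 alternatives, 16 of them leaving out a library and 3 added after the data were seen. In these, 1161 of 1253 results for single members kept their side of the threshold, 74 lost a call and 18 gained one. Of the fold changes, 0 changed sign with an adjusted p under 0.05 in the main or the alternative fit. Changes of sign between results that were not called in either fit were not counted. The number of members called was 2 at 3h against 0h, 3 at 24h against 0h, 0 at 7d against 0h, 3 at 24h against 3h, 1 at 7d against 24h and 6 for any change. Leaving out a library gave 2 to 2, 3 to 6, 0 to 2, 0 to 3, 1 to 1 and 4 to 7 in the same order; the 6 at 24h and the 2 at 7d against 0h came without 0h replicate 1, and the 0 at 24h against 3h without 24h replicate 1. At 3h against 0h, 0 members were called with Alb as a covariate, where 44 of all genes were called. At 24h against 0h, 0 were called with Myl7, where 64 of all genes were called, and 0 with Dcn as a covariate. At 24h against 3h, 1 was called with Myl7 and 1 with Alb. With Dcn 0 were called, where 595 of all genes were called, against 1279 without a covariate. At 7d against 24h, 0 were called with the compared groups alone and 0 with Myl7, where 23 of all genes were called. At 7d against 0h, 1 was called by DESeq2, 1 without robust variance and 2 without a filter, where 735 of all genes were called. For any change, 2 were called with Dcn. Where no count over all genes is given for a fit, the count of members has no background to be read against. The cause of these losses and gains was not tested. With the replicate block, 2, 4, 0, 3, 1 and 6 members were called, C1s1 at 24h against 0h being the gene gained (adjusted p = 0.0419). The labels do not state that the numbers pair the samples.

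Counts over all genes moved more: 850 at 3h against 0h (286 to 1349 without a library), 2933 at 24h (1575 to 4262), 145 at 7d (27 to 287), 1279 at 24h against 3h (756 to 1644), 1363 at 7d against 24h (755 to 2407) and 3402 for any change (2458 to 4718). Under the other alternatives they were 44 to 3224, 64 to 3543, 27 to 735, 595 to 1846, 23 to 1968 and 840 to 4725, the lowest with a marker covariate except 27, with limma on log2(TPM + 0.1). Of calls, 36.9% at 3h and 52.9% at 24h against 0h were higher, and with limma 16.8% and 18.1% on log2(TPM + 1), on which all genes shifted down, and 17.3% and 18.0% on log2(TPM + 0.1). With Alb 68.2% were higher at 3h. At 7d against 24h the share was 46.3%, and 67.1% and 67.8% with limma, 34.7% with the compared groups alone and 26.1% with Myl7. At 7d against 0h it was 21.4%, and 35.8% with DESeq2, 1.89% and 0% with limma, 38.1% without a filter and 5.88% to 36.0% in the leave-one-out fits that moved it by over 10 percentage points. Members with fewer counts, such as C3ar1, have wider errors, and C2 and Cfb were not tested except in the fit without a filter.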
